A study of Mus musculus with 12 samples.

Results

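Asynchronous S38A cells were set against asynchronous WT cells of a mouse B cell lymphoma line, with 2 libraries of each, which are 4 of the 12 libraries of the series. S38A carried the ribosomal protein RPL12 with serine 38 replaced by alanine, and WT carried the unchanged protein. Both were in 19DN, a subline of 19PP from which Flp had removed the GFP and hCD2 reporters. The parent line came from a Rag2-/-γC-/- host whose transplanted marrow carried Cγ1-Cre and Myc/P110*flSTOP, alleles that all groups share. The Cγ1-Cre allele acts in B cells that transcribe the γ1 heavy chain locus. Cells were collected in cycloheximide at 100 µg/mL, and RNA from cleared lysates was read by 3′ mRNA sequencing. Also used are mitotic S38A and mitotic WT cells (nocodazole at 100 ng/mL for 8 h, then 10 min of release) and asynchronous S38D cells, with aspartate at residue 38, with 2 libraries each. The labels do not say how the S38A line was made, whether it is 1 clone, or whether replicates came from separate cultures, so p-values reflect the spread of these samples alone and that spread may be technical.

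RPL12, also called uL11, sits at the base of the ribosomal P-stalk, the flexible arm of the large subunit that recruits the GTPases of translation. RPLP0 anchors the stalk, and pairs of RPLP1 and RPLP2 carry the tails that bind initiation, elongation and termination factors. Serine 38 of RPL12 is a phosphorylation site. Alanine in its place cannot be phosphorylated, and aspartate is used as a mimic of the phosphorylated residue.

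Gene reads numbered 6587997 and 6046872 in the S38A libraries and 4908697 and 3432875 in the WT libraries. Replicates differed by more than the 95% range of counting error in 20.5% of genes in S38A and 15.2% in WT. Outside chromosome 12, both WT libraries lay above all 10 other libraries of the series, mitotic WT included, in 965 of 10094 genes (9.56%). They lay below all 10 in 724 (7.17%). The 4 S38A libraries of both states lay above the other 8 in 267 genes (2.65%) and below them in 294 (2.91%). By order alone a set of 4 lies apart less often than a set of 2, so these shares do not compare directly. The pairs of the other groups were not counted. ERCC spike-in RNA, added in equal volume to 1 µg of total RNA, came to 3.31% and 3.04% of gene reads in S38A and 2.70% and 2.29% in WT. TMM scaling sets most genes near no change, and spike-in scaling in its place moved log2 fold changes by a median of -0.45. The fold change also ran with the GC content of the last 300 nt of the transcript (Spearman 0.24 across 10472 genes, which share the libraries and are not independent replicates), with medians of -0.24 in the lowest and 0.15 in the highest of 5 GC classes. Between mitotic S38A and WT cells the trend was reversed (Spearman -0.21), with medians of 0.17 in the lowest and -0.11 in the highest class. For asynchronous S38D against WT cells it was 0.27. B cell markers fitted the label: 9 of 10 were measured, Blk was at 1 and 0 reads in S38A and 8 and 1 in WT, and the 10 summed to 9471 and 9969 CPM in S38A against 6763 and 6771 CPM in WT (CPM, counts scaled by library size and TMM factor). Pou2af1 made up most of these sums, with 5622 and 6110 CPM in S38A and 3599 and 3768 CPM in WT. Pax5 went the other way, with 207.5 and 148.4 CPM in S38A and 232.9 and 238.8 CPM in WT. The libraries of Cd74 and Cd79a overlapped between groups. Of 14 T and NK cell markers 11 and 13 were at 0 in S38A and 12 and 13 in WT, with sums of 6.92 and 7.40 CPM against 3.71 and 2.83 CPM. Of 12 myeloid markers 9 and 10 were at 0 in S38A and 9 and 10 in WT, with sums of 6.29 and 2.24 CPM against 3.12 and 3.11 CPM. The 15 stromal, epithelial and erythroid markers summed to 111 and 94.7 CPM in S38A and 28.5 and 28.9 CPM in WT, nearly all of it Pecam1, with Col1a2, Dcn, Krt8, Krt18 and Pdgfrb at 0 in all 4 libraries. The part of these differences in the results below was not tested.

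Outside chromosome 12, genes differed between S38A and WT in both directions. Of 10094 genes tested there, 1080 were higher (10.7%) and 982 lower (9.73%) in S38A than in WT by edgeR's quasi-likelihood test at an adjusted p under 0.05, called genes from here on. The lower side held the larger changes: 492 genes were lower and 172 higher by at least 2-fold, and the median log2 fold change was -1.0 among lower and 0.63 among higher genes. Among the 982 lower genes, 410 (41.8%) had both WT libraries above all 10 others, and among the 1080 higher genes 286 (26.5%) had both below. The call rests on the same WT libraries, so part of these shares follows from the selection. The counts moved by more than 1.5 times with single libraries left out. Without S38A replicates 1 and 2 there were 713 and 575 higher and 453 and 417 lower genes. Without WT replicates 1 and 2 there were 379 and 578 higher and 404 and 603 lower, and without S38D asynchronous replicates 1 and 2, which add to the estimate of spread, 1771 and 1799 higher. Spike-in scaling left 158 higher genes and gave 3082 lower ones. Of 128 called genes checked, 28 lost the call with it and 2 changed sign. This set holds some genes not named here and leaves out some that are, such as Ddit4, Slc1a5 and Mthfd1l. In these bulk samples a lower share of cells of a kind and less RNA per cell cannot be told apart.

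Rpl12 (chr2:32961559-32965345, GRCm38) had 41.2 and 44.6 CPM in S38A and 39.8 and 39.0 CPM in WT libraries, a log2 fold change of 0.12 (SE 0.163, adjusted p = 0.628). The S38A libraries lay just above the WT libraries, and the fold change became -0.33 with spike-in scaling. A 3′ read count covers both alleles of a single-residue change alike, so it does not check the label, and reads may also come from Rpl12 pseudogenes or from Lrsam1, which overlaps it on the other strand. Rplp0 had 2278 and 2423 CPM in S38A and 2274 and 2268 CPM in WT, Rplp1 had 4420 and 4682 CPM in S38A and 5011 and 4541 CPM in WT, and Rplp2 had 134 and 148 CPM in S38A and 131 and 132 CPM in WT. The Rplp1 libraries overlapped, and the others differed by little. Their log2 fold changes were 0.05, -0.07 and 0.10 with adjusted p = 0.785, 0.696 and 0.577. With spike-in scaling Rplp0 (-0.41, adjusted p = 0.0329) and Rplp1 (-0.52, adjusted p = 0.0102) were called lower, and Rplp2 was at -0.35 (adjusted p = 0.104). Eef2, the elongation GTPase that the stalk recruits, rose to 6636 and 6312 CPM in S38A, against 4518 and 4818 CPM in WT (log2 fold change 0.47, SE 0.116, adjusted p = 0.00863, adjusted p = 0.106 without WT replicate 1), and with spike-in scaling its log2 fold change was 0.009 (adjusted p = 0.963). All cytosolic ribosomal proteins together stayed near the bulk: of 76 measured, 2 were higher and 4 lower, with a median of 0.04 (-0.41 with spike-in scaling). The higher count was 0 without WT replicate 1, WT replicate 2 or S38A replicate 2 and 10 without either S38D asynchronous library, and the lower count 0 without WT replicate 1 and 2 without WT replicate 2 or either S38A library. Among the lower ones, Rpl5, which carries 5S rRNA into the subunit, had 9.75 and 10.3 CPM in S38A and 18.9 and 18.1 CPM in WT (log2 fold change -0.88, adjusted p = 0.00763), with S38A below WT in mitotic cells too. Rpl5 was not called by DESeq2 (adjusted p = 0.066), without WT replicate 1 (adjusted p = 0.0721) or without S38A replicate 1 (adjusted p = 0.0723).

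The genes with the largest losses were nearly silent in S38A. Ptprcap (chr19:4153604-4156751), whose protein associates with the phosphatase CD45 on lymphocytes, had 2 and 1 reads in S38A and 187 and 109 in WT, a counting interval of -9.40 to -5.55 for the log2 ratio, which covers counting error only. Wnt10a (chr1:74791516-74804179), a secreted Wnt ligand, had 0.786 and 0.516 CPM in S38A and 23.2 and 26.9 CPM in WT. All 4 S38A libraries, asynchronous and mitotic, lay below 1 CPM for both genes, and the fitted log2 fold changes were -6.97 (SE 0.445, adjusted p = 5.46e-08) and -5.20 (SE 0.278, adjusted p = 1.01e-08). Kcnab2 (chr4:152390742-152477871), a regulatory subunit of potassium channels, had 3.15 and 3.96 CPM in S38A and 54.3 and 61.1 CPM in WT (log2 fold change -4.01, SE 0.232, adjusted p = 1.94e-08). Car2, a carbonic anhydrase, had 1.89 and 0.861 CPM in S38A and 25.8 and 28.0 CPM in WT (log2 fold change -4.25, SE 0.522, adjusted p = 0.000734). The groups were far apart for all 4 genes. The rule that chose the 14 genes of each direction required groups that did not overlap.

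Other large losses included surface and adaptor proteins. Ly6a (chr15:74994877-74998031), the stem cell antigen Sca-1, had 15.4 and 12.6 CPM in S38A and 209.7 and 207 CPM in WT (log2 fold change -3.89, SE 0.172, adjusted p = 1.55e-09). Clec4d, a C-type lectin receptor of myeloid cells, had 2.04 and 1.03 CPM in S38A and 42.6 and 34.2 CPM in WT (log2 fold change -4.61, SE 0.325, adjusted p = 1.25e-07). Sla, an adaptor that restrains antigen receptor signalling, had 0.472 and 1.03 CPM in S38A and 13.9 and 16.4 CPM in WT (log2 fold change -4.30, SE 0.386, adjusted p = 1.84e-06). No S38A library reached a WT library in any of them, and for Ly6a and Sla the WT asynchronous libraries were also above every other library of the series. Gas7, an actin-binding protein, had 1.26 and 0.172 CPM in S38A and 14.4 and 17.0 CPM in WT (log2 fold change -4.36, SE 0.416, adjusted p = 3.13e-06). Afp, the fetal serum protein alpha-fetoprotein, had 3.62 and 2.07 CPM in S38A and 54.3 and 45.0 CPM in WT (log2 fold change -4.11, SE 0.285, adjusted p = 1.12e-07). Taf7l, a testis form of a TFIID subunit, had 0.629 and 0.172 CPM in S38A and 13.1 and 13.0 CPM in WT, and Acsbg1, a fatty acid activating enzyme, had 0.944 and 0.689 CPM in S38A and 9.76 and 13.0 CPM in WT. These 4 genes were lower in both S38A libraries, and all 4 were also called lower in mitotic S38A cells.

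A further set was high in the WT asynchronous libraries alone. Cntrob, a centriole protein, had 1.57 and 1.21 CPM in S38A and 21.9 and 24.6 CPM in WT (log2 fold change -4.03, SE 0.480, adjusted p = 5.72e-05). Adam9, a membrane metalloprotease, had 1.10 and 0.689 CPM in S38A and 14.1 and 12.2 CPM in WT (log2 fold change -3.83, SE 0.412, adjusted p = 1.13e-05). Cog3, a subunit of a Golgi tethering complex, had 0.629 and 1.21 CPM in S38A and 10.7 and 15.6 CPM in WT (log2 fold change -3.81, SE 0.622, adjusted p = 0.00109). In both asynchronous WT libraries they stood above the other 10. Mitotic cells had 1.08 and 3.01 CPM of Cntrob in S38A and 1.32 and 1.53 CPM in WT, 2.17 and 1.42 CPM of Adam9 in S38A and 2.26 and 1.31 CPM in WT, and 0.902 and 1.06 CPM of Cog3 in S38A and 0.943 and 1.09 CPM in WT. Mitotic WT cells were as low as S38A cells, and the difference between states in the S38A effect was called for Cntrob and Adam9 (adjusted p = 0.0235 and 0.017) but not for Cog3 (adjusted p = 0.134).

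**Figure D1:**
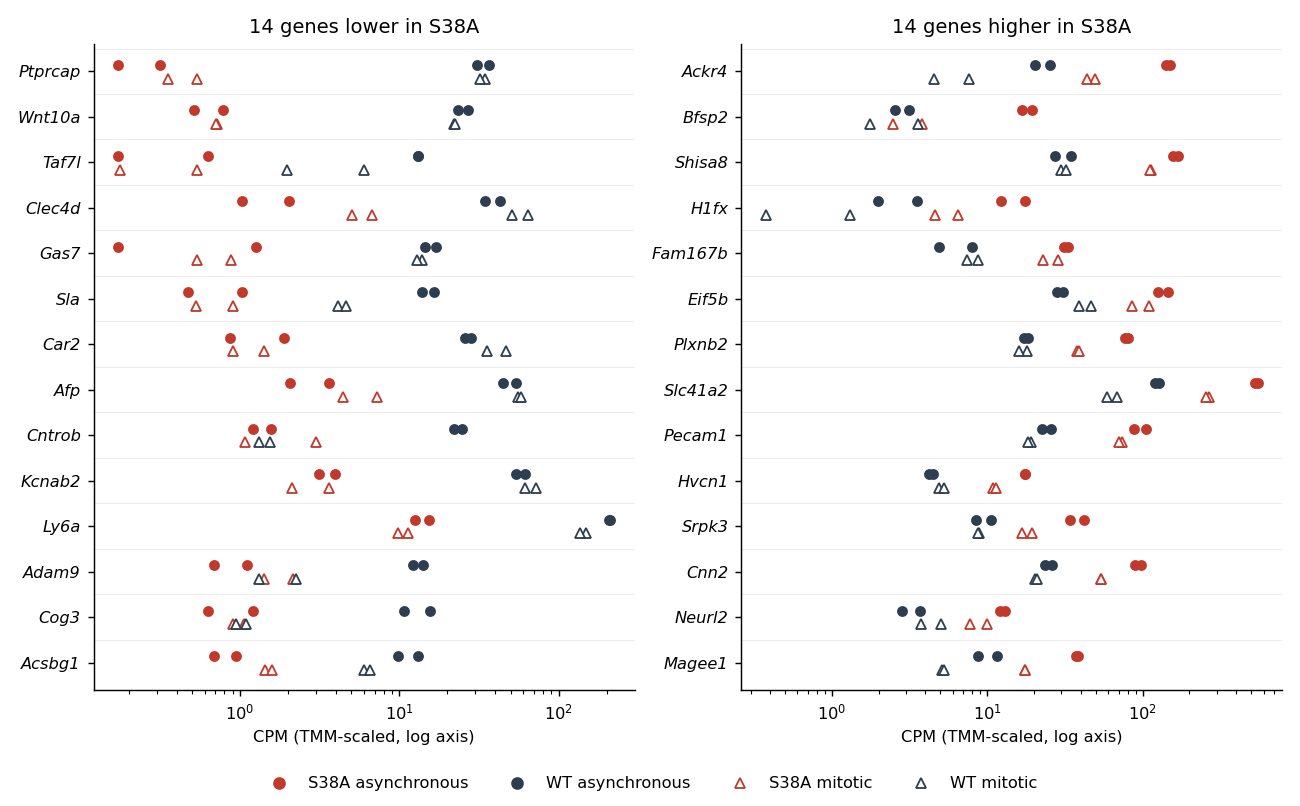
Read level per library (CPM, log axis) of the 14 genes outside chromosome 12 with the largest called decrease (left) and increase (right) in asynchronous S38A against WT cells; each point is 1 library, filled for asynchronous and open for mitotic cells, red for S38A and dark blue for WT. For Cntrob, Adam9 and Cog3 the open dark blue points of mitotic WT cells lie with the S38A points and not with the filled WT points.

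The 14 genes with the largest increases included receptors and other membrane proteins. Ackr4 (chr9:104084157-104126933), a receptor that scavenges the chemokines CCL19 and CCL21, had 140.2 and 150.5 CPM in S38A and 25.2 and 20.4 CPM in WT (log2 fold change 2.66, SE 0.178, adjusted p = 6.83e-08). Slc41a2 (chr10:83230848-83337882), a magnesium transporter, had 531 and 551 CPM in S38A and 128 and 120.5 CPM in WT (log2 fold change 2.12, SE 0.134, adjusted p = 5.36e-08). Shisa8, of a family of membrane adaptors, had 158 and 168 CPM in S38A and 34.4 and 27.2 CPM in WT (log2 fold change 2.39, SE 0.158, adjusted p = 6.83e-08). In each of them both S38A libraries were far above both WT libraries. Pecam1, the adhesion molecule CD31, had 105 and 87.6 CPM in S38A and 22.6 and 25.8 CPM in WT (log2 fold change 2.0, SE 0.169, adjusted p = 9.07e-07). Plxnb2, a semaphorin receptor used in contacts of germinal centre B cells with T cells, had 77.4 and 79.9 CPM in S38A and 18.2 and 17.3 CPM in WT (log2 fold change 2.15, SE 0.159, adjusted p = 2.13e-07). Hvcn1, a proton channel that works beside the B cell receptor, had 17.5 and 17.4 CPM in S38A and 4.49 and 4.24 CPM in WT (log2 fold change 1.99, SE 0.237, adjusted p = 2.89e-05). Both S38A libraries lay above both WT libraries for all of these genes, and each was called higher in mitotic S38A cells too.

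Among the other genes of the 14, the linker histone H1fx had 17.5 and 12.2 CPM in S38A and 3.51 and 1.98 CPM in WT (log2 fold change 2.37, SE 0.366, adjusted p = 0.000298). The translation factor Eif5b, a GTPase that joins the ribosomal subunits, had 126 and 146 CPM in S38A and 30.6 and 28.0 CPM in WT (log2 fold change 2.21, SE 0.196, adjusted p = 2.93e-06). The actin-binding protein Cnn2 had 89.0 and 98.1 CPM in S38A and 26.0 and 23.5 CPM in WT (log2 fold change 1.92, SE 0.140, adjusted p = 1.95e-07). The groups did not overlap, which the rule for named genes required. Fam167b, Srpk3, Magee1 and Neurl2 were also higher, with log2 fold changes of 2.36, 1.98, 1.91 and 1.91. Bfsp2, a filament protein known from the lens, had 16.7 and 19.4 CPM in S38A and 3.12 and 2.55 CPM in WT (log2 fold change 2.64, SE 0.322, adjusted p = 3.53e-05), but 3.79 and 2.48 CPM in mitotic S38A and 3.58 and 1.75 CPM in mitotic WT cells, where the groups overlapped. Ptprcap overlaps Coro1b on the same strand, and Ackr4, Eif5b, Hvcn1 and Neurl2 overlap a gene on the other strand, so their reads are uncertain where the unstated strand setting of the counting did not separate them.

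ATF4 is the transcription factor of the integrated stress response: its mRNA is translated when eIF2 is phosphorylated, and it switches on amino acid enzymes and transporters, other stress regulators and feedback genes. Part of its targets were lower in S38A. Of 16 measured regulators of the stress response on the list, 10 were lower and 1 higher (median log2 fold change -1.06, against -0.02 over all 10477 genes, of which 9.54% were lower and 11.7% higher). Of 23 amino acid genes 9 were lower and 2 higher (median -0.30). With spike-in scaling the medians were -1.52 and -0.77. That scaling moved log2 fold changes by a median of -0.45, so it could not turn a negative median. The second lower count fell without S38A replicate 1 or replicate 2. For 6 of the 10 regulators and 4 of the 9 amino acid genes that were lower, both WT asynchronous libraries were above all 10 others. The same held for 41.8% of all lower genes outside chromosome 12, in part through the selection.

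Many ATF4 targets carry an amino acid response element, where ATF4 binds with a C/EBP partner, whose core was searched as TGATGNAA on both strands of RefSeq promoters (GRCm38.p6, 250 bases before to 50 after the start). The core was present in 1096 of 27025 promoters (4.06%), in 172 of 8112 of the genes tested (2.12%), in 11 of 33 matched promoters of ATF4 list genes (33.3%) and in 8 of 16 of the list genes called lower that matched a promoter (50.0%; Cth, Slc7a5 and Eif4ebp1 did not match). The lists were drawn from known ATF4 targets, so the core is no independent observation. The 4 promoters below belong to the called genes with the core and the smallest adjusted p. Capitals mark the core in either orientation, and each run reads 5′ to 3′ along the gene's strand.
Trib3: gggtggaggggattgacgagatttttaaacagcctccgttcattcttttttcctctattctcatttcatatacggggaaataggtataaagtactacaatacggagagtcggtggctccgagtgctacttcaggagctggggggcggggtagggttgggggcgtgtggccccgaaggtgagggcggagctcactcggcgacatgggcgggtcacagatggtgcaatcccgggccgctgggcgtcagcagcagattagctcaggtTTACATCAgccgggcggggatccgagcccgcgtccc
Herpud1: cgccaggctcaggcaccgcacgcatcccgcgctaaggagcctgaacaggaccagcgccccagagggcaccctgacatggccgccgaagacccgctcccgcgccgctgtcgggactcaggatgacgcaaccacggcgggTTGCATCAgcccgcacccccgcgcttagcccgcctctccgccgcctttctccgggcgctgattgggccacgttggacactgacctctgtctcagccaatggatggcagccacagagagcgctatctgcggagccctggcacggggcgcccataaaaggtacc
Nupr1: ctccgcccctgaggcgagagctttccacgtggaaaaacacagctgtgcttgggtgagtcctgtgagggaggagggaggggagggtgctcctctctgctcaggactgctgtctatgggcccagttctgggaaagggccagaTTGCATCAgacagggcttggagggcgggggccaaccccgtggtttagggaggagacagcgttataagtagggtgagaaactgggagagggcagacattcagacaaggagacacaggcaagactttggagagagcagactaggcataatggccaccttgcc
Slc7a11: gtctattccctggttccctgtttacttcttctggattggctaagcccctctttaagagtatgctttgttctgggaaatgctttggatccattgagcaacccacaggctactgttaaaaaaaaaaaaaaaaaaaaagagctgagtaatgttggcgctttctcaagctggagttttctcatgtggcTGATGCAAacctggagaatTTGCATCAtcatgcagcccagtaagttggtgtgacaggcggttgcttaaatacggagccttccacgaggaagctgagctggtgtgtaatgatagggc
Their positions are chr2:152344011-152344310 (minus strand), chr8:94386179-94386478 (plus strand), chr7:126625421-126625720 (minus strand) and chr3:50443564-50443863 (minus strand). Slc7a11 held 2 cores, in opposite orientations and without overlap, and the others held 1 each.

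Trib3, a pseudokinase that feeds back on ATF4, had 104 and 109.8 CPM in S38A and 292 and 350.3 CPM in WT (log2 fold change -1.58, SE 0.128, adjusted p = 5.60e-07). Nupr1, a stress-induced chromatin protein, had 0.944 and 1.21 CPM in S38A and 15.2 and 13.0 CPM in WT (log2 fold change -3.70, SE 0.399, adjusted p = 1.15e-05). Herpud1, which acts in the degradation of endoplasmic reticulum proteins, had 330.2 and 323 CPM in S38A and 693 and 707 CPM in WT (log2 fold change -1.10, SE 0.116, adjusted p = 9.29e-06). For all of them the S38A libraries were below both WT libraries, most widely for Nupr1. Several bZIP factors of the list were called lower as well. Cebpb had 19.7 and 15.8 CPM in S38A and 78.1 and 94.5 CPM in WT (log2 fold change -2.27, SE 0.180, adjusted p = 4.54e-07), and Ddit3, the stress factor CHOP, had 116 and 126 CPM in S38A and 280.5 and 304 CPM in WT (log2 fold change -1.28, SE 0.130, adjusted p = 6.44e-06). Atf5 had 1346 and 1250 CPM in S38A and 2665 and 2608 CPM in WT (log2 fold change -1.02, SE 0.121, adjusted p = 2.76e-05). Atf3 had 2.04 and 1.21 CPM in S38A and 7.81 and 7.07 CPM in WT (log2 fold change -2.17, SE 0.343, adjusted p = 0.000371). None of these 4 factors overlapped between groups, whereas the bZIP factor Atf6 was not called (log2 fold change -0.42, adjusted p = 0.0742), and the RNA of Atf4 itself was at 1881 and 1932 CPM in S38A and 2001 and 2294 CPM in WT (log2 fold change -0.17, SE 0.123, adjusted p = 0.343). Ddit4, an inhibitor of mTORC1, was the 1 regulator called higher, at 638 and 576 CPM in S38A and 444 and 480.5 CPM in WT (log2 fold change 0.39, SE 0.101, adjusted p = 0.0109), and was not called with spike-in scaling or without WT replicate 1 or S38A replicate 1.

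On the amino acid list both transporters and enzymes were called lower. Slc7a11, which imports cystine, had 1.57 and 1.03 CPM in S38A and 11.9 and 14.4 CPM in WT (log2 fold change -3.29, SE 0.392, adjusted p = 2.84e-05). Slc6a9, a glycine transporter, had 22.6 and 24.4 CPM in S38A and 57.8 and 49.5 CPM in WT (log2 fold change -1.19, SE 0.158, adjusted p = 7.76e-05). Slc7a1, an importer of arginine and lysine, had 244 and 231 CPM in S38A and 361 and 401 CPM in WT (log2 fold change -0.68, SE 0.119, adjusted p = 0.000807). Got1, the cytosolic aspartate aminotransferase, had 55.7 and 58.4 CPM in S38A and 88.8 and 95.9 CPM in WT (log2 fold change -0.69, SE 0.114, adjusted p = 0.000516). Cth, which makes cysteine from cystathionine, had 48.0 and 46.1 CPM in S38A and 182 and 204 CPM in WT (log2 fold change -2.03, SE 0.360, adjusted p = 0.00695). S38A was lower in both libraries for each, and asparagine synthetase, Asns, followed more weakly with 93.6 and 107 CPM in S38A and 134 and 134 CPM in WT (log2 fold change -0.42, SE 0.142, adjusted p = 0.0471). Slc1a5 and Mthfd1l were called higher, by 0.38 and 0.46 (adjusted p = 0.0325 and 0.0464), and neither was with spike-in scaling, without WT replicate 1 or without S38A replicate 2. Mitotic cells share no library with the asynchronous ones, though all 12 libraries enter the estimate of spread. In mitotic cells all 10 lower regulators and all 9 lower amino acid genes were called lower in S38A again. Of all 982 genes outside chromosome 12 called lower in asynchronous cells, 39.0% were called lower again. Among all genes, without that selection, 8.72% were lower in mitotic S38A cells. Trib3 had 75.1 and 71.7 CPM in mitotic S38A and 229 and 202 CPM in mitotic WT cells (log2 fold change -1.55, SE 0.129, adjusted p = 1.10e-06). The RNA of Atf4, not called in asynchronous cells, was called lower in mitotic S38A cells. It had 1643 and 1488 CPM in mitotic S38A and 2483 and 2216 CPM in mitotic WT cells (log2 fold change -0.59, SE 0.124, adjusted p = 0.0038).

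**Figure D2:**
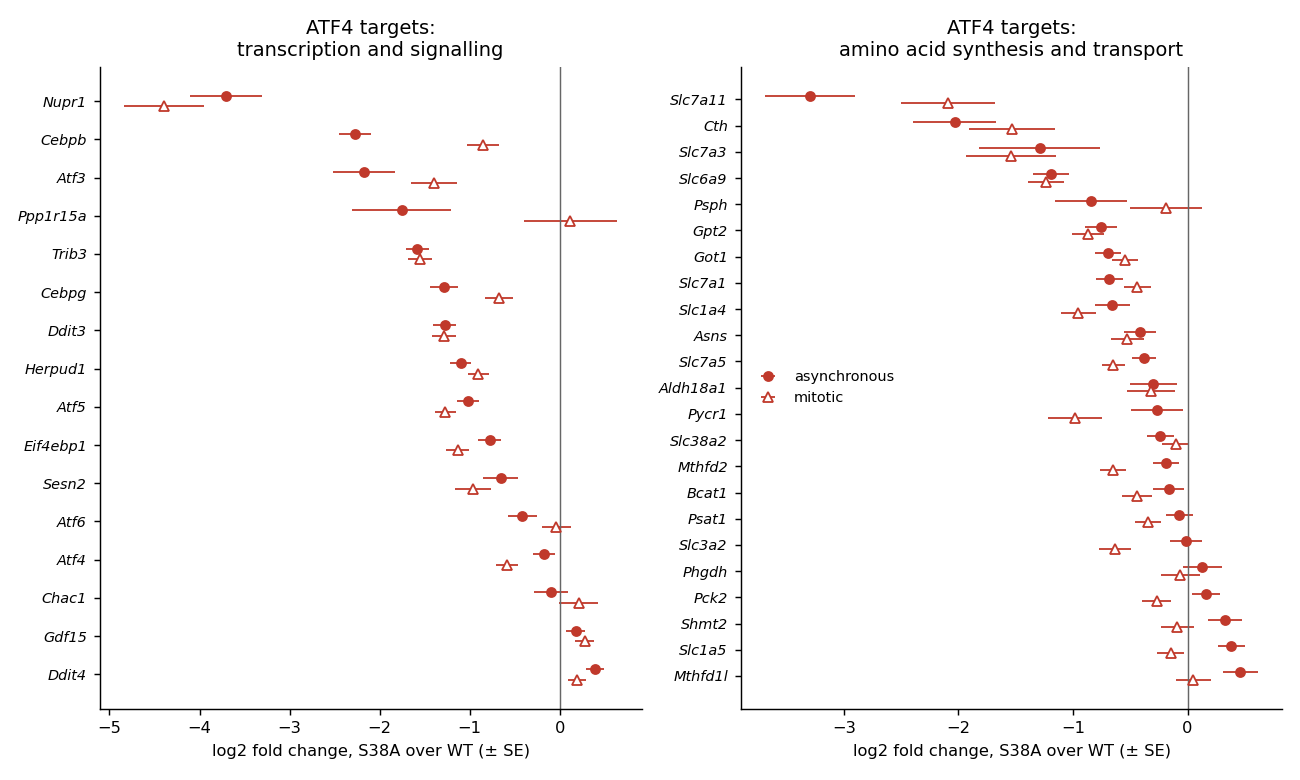
Log2 fold change of S38A over WT (± SE) for every measured ATF4 target of the regulator list (left, 16 genes) and the amino acid list (right, 23 genes), filled circles for asynchronous and open triangles for mitotic cells, 2 libraries a group. The genes at the top of both panels, such as Nupr1, Cebpb and Slc7a11, lie left of 0 in both states.

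Many cell cycle genes were called higher in S38A, a direction that depended on the scaling. Of 69 genes of G2 and mitosis, 31 were higher and 1 lower, with a median of 0.38 that became -0.07 with spike-in scaling. Of 66 genes of the G1/S transition and DNA replication, 28 were higher and none lower by edgeR (3 at an unadjusted p under 0.05, and 1 by DESeq2), with a median of 0.33 that became -0.13. With spike-in scaling 3 and 6 members of these lists were higher, and Cdc20 was no longer called. Incenp, which anchors Aurora B at centromeres, had 421 and 438 CPM in S38A and 138 and 143 CPM in WT (log2 fold change 1.61, SE 0.169, adjusted p = 2.31e-05). Cdc20, which activates the anaphase promoting complex, had 369.7 and 322 CPM in S38A and 197 and 224 CPM in WT (log2 fold change 0.72, SE 0.116, adjusted p = 0.000424). Tpx2, a spindle assembly factor, had 109.8 and 107 CPM in S38A and 51.3 and 50.1 CPM in WT (log2 fold change 1.10, SE 0.144, adjusted p = 7.45e-05). S38A stood above WT in both libraries for each, most for Incenp. On the replication side, Cdc6, which loads the MCM helicase, had 126 and 135 CPM in S38A and 61.1 and 62.5 CPM in WT (log2 fold change 1.07, SE 0.117, adjusted p = 1.32e-05). Uhrf1, which maintains DNA methylation, had 98.9 and 99.9 CPM in S38A and 34.4 and 43.6 CPM in WT (log2 fold change 1.36, SE 0.167, adjusted p = 3.86e-05). Again the groups did not overlap. The G2 and mitosis count was 14, 16 and 17 without WT replicate 1, WT replicate 2 and S38A replicate 2, and the G1/S count 17 without WT replicate 1. Without either S38D asynchronous library 5 G1/S genes and 3 G2 and mitosis genes were lower. In mitotic cells 21 and 26 genes of these lists were higher in S38A, against 8.31% of all genes, with 15 and 17 in common with the asynchronous calls.

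Histone and tubulin genes differed from this pattern in part. Of 24 replication-dependent histone genes, 6 were lower and 1 higher (median -0.46). Hist1h1c, a linker histone, had 68.9 and 75.6 CPM in S38A and 169.6 and 188 CPM in WT (log2 fold change -1.30, SE 0.110, adjusted p = 9.07e-07), and Hist2h2be had 50.2 and 55.1 CPM in S38A and 104 and 108 CPM in WT (log2 fold change -1.01, SE 0.149, adjusted p = 0.000213). These mRNAs mostly end without a poly(A) tail, so a 3′ library that primes on poly(A) counts their polyadenylated forms. Of 13 tubulins 5 were higher and 1 lower (median 0.33, -0.12 with spike-in scaling). Tubb5 had 2600 and 2341 CPM in S38A and 1501 and 1630 CPM in WT (log2 fold change 0.66, SE 0.133, adjusted p = 0.00249), with S38A above WT in both libraries and no call with spike-in scaling. The higher tubulin count was 0 without WT replicate 1 and 2 without WT replicate 2 or S38A replicate 2, and the lower histone count was 3 without WT replicate 1, WT replicate 2 or S38A replicate 2 and 2 without S38A replicate 1.

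Among B cell identity genes, 10 of 25 transcription factors of the lineage were higher and 1 lower (median 0.28, -0.17 with spike-in scaling), and 13 of 37 surface receptors were higher and 5 lower (median 0.17, -0.29 with spike-in scaling). Irf8, a factor of germinal centre B cells, had 105 and 108 CPM in S38A and 41.8 and 39.3 CPM in WT (log2 fold change 1.39, SE 0.144, adjusted p = 7.97e-06). Bcl6, the repressor that keeps the germinal centre state, had 306 and 346 CPM in S38A and 195 and 214 CPM in WT (log2 fold change 0.67, SE 0.122, adjusted p = 0.00111). Bach2, which holds back plasma cell differentiation, had 30.4 and 29.4 CPM in S38A and 12.5 and 15.0 CPM in WT (log2 fold change 1.13, SE 0.220, adjusted p = 0.00186). Both S38A libraries were above both WT libraries for these factors, though Bcl6 was not called with spike-in scaling. Prdm1, the plasma cell factor that opposes Bcl6, was lower, at 1.10 and 1.03 CPM in S38A and 6.44 and 7.07 CPM in WT (log2 fold change -2.63, SE 0.386, adjusted p = 0.000198). Of 12 plasma cell genes measured, 3 were higher and only Prdm1 was lower. In mitotic cells Prdm1 was not called (log2 fold change -0.79, adjusted p = 0.284). Asynchronous S38D had 1.43 and 1.94 CPM of it, and both WT asynchronous libraries were above all 10 others. Among receptors, Cr2, the complement receptor CD21, had 118 and 122 CPM in S38A and 43.7 and 38.2 CPM in WT (log2 fold change 1.54, SE 0.143, adjusted p = 2.36e-06). Cd22, an inhibitory coreceptor, had 381 and 397 CPM in S38A and 177 and 174 CPM in WT (log2 fold change 1.15, SE 0.122, adjusted p = 1.04e-05), and Tnfrsf13c, the BAFF receptor, had 262 and 293 CPM in S38A and 126 and 123 CPM in WT (log2 fold change 1.15, SE 0.124, adjusted p = 1.19e-05). Receptors that were lower included Ptprcap, Slamf6, Cd9, Ly6d and Cd55. The factor count was 4, 5, 6 and 5 without WT replicates 1 and 2 and S38A replicates 1 and 2, and the higher receptor count 8 without WT replicate 2. The lower receptor count was 3, 2 and 3 without WT replicate 1, S38A replicate 1 and S38A replicate 2.

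Germinal centre genes had the highest median of the 34 pathway lists, 0.58, with 11 of 27 higher and 1 lower (0.12 with spike-in scaling, 7 higher without WT replicate 1). S1pr2, which confines B cells to the germinal centre, had 1331 and 1388 CPM in S38A and 765 and 763 CPM in WT (log2 fold change 0.83, SE 0.102, adjusted p = 3.78e-05). Trp53i11 had 60.7 and 67.0 CPM in S38A and 25.2 and 26.9 CPM in WT (log2 fold change 1.30, SE 0.167, adjusted p = 6.20e-05). The libraries of the groups were apart in both of them. Of 40 genes of B cell receptor signalling 11 were higher and 3 lower (median 0.13, -0.32 with spike-in scaling; 5 and 6 higher without WT replicates 1 and 2). The lower ones included a kinase and an adaptor of the proximal pathway. Fyn, a Src family kinase, had 6.76 and 7.40 CPM in S38A and 71.1 and 65.1 CPM in WT (log2 fold change -3.26, SE 0.202, adjusted p = 4.52e-08). Lat2, an adaptor that overlaps Rfc2 on the other strand, had 22 and 20.8 CPM in S38A and 80.2 and 75.5 CPM in WT (log2 fold change -1.86, SE 0.165, adjusted p = 1.68e-06). Inpp5d, the phosphatase SHIP1, which opposes PI3K, was higher with 310.0 and 317 CPM in S38A and 168 and 199.5 CPM in WT (log2 fold change 0.77, SE 0.127, adjusted p = 0.000517). For Fyn and Lat2 the WT libraries were far above those of S38A, and for Inpp5d, which was not called with spike-in scaling, the S38A libraries were above both WT libraries. Of 20 chemokine, homing and integrin genes 5 were higher and 5 lower, among them Itgb2, the common chain of leukocyte integrins, at 26.6 and 29.1 CPM in S38A and 14.2 and 10.8 CPM in WT (log2 fold change 1.14, adjusted p = 0.00148), and the chemokine receptor Ccr10, at 4.09 and 4.48 CPM in S38A and 11.1 and 10.5 CPM in WT (log2 fold change -1.33, adjusted p = 0.00538). Without WT replicate 1 and S38A replicate 1 the adjusted p of Ccr10 was 0.0574 and 0.0582. The higher count was 3 without WT replicate 1 or S38A replicate 2, and the lower count 0, 3, 2 and 2 without WT replicates 1 and 2 and S38A replicates 1 and 2.

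Translation factors and ribosome assembly genes were called higher in part, a direction that depended on the scaling. With spike-in scaling 4 of the factors were higher and 15 lower, and 1 of the assembly genes was higher and 24 lower. Over all genes tested, without that scaling, 11.7% were higher and 9.54% lower. Of 57 factors 13 were higher and 3 lower (median 0.17, -0.29 with spike-in scaling; 7 higher without WT replicate 1, and 24 and 25 without S38D asynchronous replicates 1 and 2). Eif4g1, the scaffold of the cap-binding complex, had 694 and 605 CPM in S38A and 289 and 388 CPM in WT (log2 fold change 0.94, SE 0.134, adjusted p = 0.000157). Paip2, which inhibits the poly(A)-binding protein, had 84.6 and 94.2 CPM in S38A and 185 and 147 CPM in WT (log2 fold change -0.90, SE 0.137, adjusted p = 0.000273). Eif4e, the cap-binding protein, and its inhibitor Eif4ebp1 were the other lower members. Of 72 ribosome biogenesis genes 13 were higher and 2 lower (median 0.06, -0.40 with spike-in scaling; 5, 4, 8 and 6 higher without WT replicates 1 and 2 and S38A replicates 1 and 2, and 23 without either S38D asynchronous library). Nop2, an rRNA methyltransferase, had 206 and 218 CPM in S38A and 102 and 119 CPM in WT (log2 fold change 0.95, SE 0.136, adjusted p = 0.000171). S38A lay above WT in both libraries for Eif4g1 and Nop2 and below it for Paip2. Of 22 cytosolic tRNA synthetases 3 were higher and 1 lower, and the higher count was 0 without WT replicate 2 and 1 without any other library of the 4. The glutamine enzyme Qars had 146 and 149.6 CPM in S38A and 105 and 98.8 CPM in WT (log2 fold change 0.53, adjusted p = 0.00611; 0.0621 without WT replicate 2 and 0.659 with spike-in scaling). The isoleucine enzyme Iars had 126 and 139 CPM in S38A and 204 and 207 CPM in WT (log2 fold change -0.63, adjusted p = 0.0124; 0.0596 to 0.137 without 1 library of the 4).

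Metabolic lists were close to the background. Of 27 genes of cholesterol synthesis and uptake 3 were higher and 2 lower (median 0.08, -0.39 with spike-in scaling). Tm7sf2, a sterol reductase that overlaps Vps51 on the same strand, had 0.629 and 0.172 CPM in S38A and 10.2 and 9.34 CPM in WT (log2 fold change -4.50, SE 0.524, adjusted p = 2.41e-05). Both S38A libraries were below both WT libraries. The higher count was 0 without WT replicate 1, WT replicate 2 or S38A replicate 2, and 11 without either S38D asynchronous library. Hmgcs1, which feeds the pathway, had 877 and 902 CPM in S38A and 672 and 654 CPM in WT (log2 fold change 0.42, adjusted p = 0.00833), a sign that turned with spike-in scaling (-0.03). Of 77 nuclear-encoded respiratory chain subunits 9 were higher and none lower by edgeR (3 at an unadjusted p under 0.05, and 1 by DESeq2; median 0.13, -0.33 with spike-in scaling), and the higher count was 1, 2, 5 and 1 without WT replicates 1 and 2 and S38A replicates 1 and 2, and 23 without either S38D asynchronous library. Of 28 glycolysis and hypoxia genes 5 were higher and 2 lower, with Ankrd37, a hypoxia-induced ankyrin repeat gene, at 16.1 and 13.8 CPM in S38A and 4.88 and 2.83 CPM in WT (log2 fold change 1.90, SE 0.340, adjusted p = 0.00101). The higher count was 2 and 3 without WT replicates 1 and 2 and 8 without either S38D asynchronous library, and the lower count 0 without WT replicate 2 or S38A replicate 2 and 1 without WT replicate 1. Vegfa, a hypoxia-induced growth factor, was lower, at 23.4 and 19.8 CPM in S38A and 46.7 and 54.9 CPM in WT (log2 fold change -1.23, adjusted p = 0.0073; 0.0582 without WT replicate 2 and 0.0891 without S38A replicate 2).

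Stress, survival and immune lists, here and in the next paragraph, held changes in both directions. So did all genes tested, with 11.7% higher and 9.54% lower, and several counts of these lists were near those shares. Of 24 p53 targets 5 were lower and 2 higher, led by Gadd45a, at 8.18 and 5.85 CPM in S38A and 29.7 and 24.1 CPM in WT (log2 fold change -1.94, SE 0.345, adjusted p = 0.0015), and by Trp53inp1, at 13.1 and 9.47 CPM in S38A and 36.1 and 24.3 CPM in WT (log2 fold change -1.43, SE 0.257, adjusted p = 0.00103). Bax, a pore-forming death protein, had 87.2 and 67.3 CPM in S38A and 130.4 and 122 CPM in WT, and Mcl1, a survival protein, had 3560 and 3649 CPM in S38A and 2402 and 2583 CPM in WT. Bax was lower (log2 fold change -0.71, adjusted p = 0.00195; 0.0691 without S38A replicate 2) and Mcl1 higher (log2 fold change 0.53, adjusted p = 0.00126) in both S38A libraries, Mcl1 without a call with spike-in scaling. Of 29 genes of the endoplasmic reticulum stress response 5 were lower and 3 higher. Hsp90b1, the chaperone GRP94, had 87.2 and 94.0 CPM in S38A and 265 and 215 CPM in WT (log2 fold change -1.41, SE 0.233, adjusted p = 0.00266). Xbp1, a factor of the same response, had 355 and 386 CPM in S38A and 196 and 223 CPM in WT (log2 fold change 0.82, SE 0.117, adjusted p = 0.000143). The chaperone was below and the factor above WT in both S38A libraries, and Xbp1 was not called with spike-in scaling. The lower count was 2 of p53 targets without S38A replicate 2, and of endoplasmic reticulum genes 2 without S38A replicate 1 and 3 without any other library of the 4. Without either S38D asynchronous library it was 8 for each list. The higher p53 count was 1 without S38A replicate 1 and 0 without any other library of the 4.

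Of 28 antigen presentation genes 6 were higher and 4 lower. B2m, the light chain of MHC class I, had 49.2 and 49.4 CPM in S38A and 128 and 102 CPM in WT (log2 fold change -1.22, SE 0.207, adjusted p = 0.00141). Psmb8, an immunoproteasome subunit, had 346 and 422 CPM in S38A and 219 and 227 CPM in WT (log2 fold change 0.78, SE 0.119, adjusted p = 0.000269). The class I genes H2-K1, H2-Q7 and H2-T22 were lower with B2m, while H2-DMa, H2-DMb2 and H2-Ob of the class II loading pathway and Tap1 were higher with Psmb8, and 0 genes of the list were called higher with spike-in scaling. The higher count was 2 without WT replicate 1 and 3 without WT replicate 2 or S38A replicate 2, and the lower count 1 without WT replicate 1 and 2 without any other library of the 4. Of 21 interferon-stimulated genes 6 were higher and 1 lower (median 0.38, -0.09 with spike-in scaling; 2 higher without WT replicate 1 and 2 without WT replicate 2). Adar, an RNA-editing enzyme, had 79.3 and 79.9 CPM in S38A and 37.9 and 40.8 CPM in WT (log2 fold change 1.02, SE 0.175, adjusted p = 0.000734), and Bst2, the virus-tethering protein tetherin, had 38.9 and 31.0 CPM in S38A and 81.6 and 78.1 CPM in WT (log2 fold change -1.19, SE 0.143, adjusted p = 3.11e-05). Of 39 immediate early genes 6 were higher and 5 lower, and Dusp2, a MAP kinase phosphatase, had 1676 and 1566 CPM in S38A and 736 and 789 CPM in WT (log2 fold change 1.09, SE 0.0995, adjusted p = 2.07e-06). Of 24 NF-kB genes 6 were higher and 1 lower, among them Traf2, at 56.3 and 55.3 CPM in S38A and 26.6 and 25.8 CPM in WT (log2 fold change 1.09, SE 0.159, adjusted p = 0.000181). Of 12 genes of the MYC network 2 were higher and 2 lower. Mxd4, which competes with MYC for its partner MAX, had 792 and 788 CPM in S38A and 433 and 447 CPM in WT (log2 fold change 0.84, SE 0.120, adjusted p = 0.000157). The nuclear noncoding RNA Neat1 had 115 and 123 CPM in S38A and 209.5 and 210.0 CPM in WT (log2 fold change -0.82, SE 0.119, adjusted p = 0.000179), and Malat1 had 17.6 and 14.3 CPM in S38A and 47.2 and 40.5 CPM in WT (log2 fold change -1.46, SE 0.247, adjusted p = 0.00139). Without WT replicate 1 there were 3 higher immediate early genes and 2 higher NF-kB genes, and without S38A replicate 2 there were 3 higher NF-kB genes. The lower count of NF-kB genes was 0 without any 1 library of the 4 and 4 without either S38D asynchronous library. The lower count of the MYC network was 1 without either WT library and 0 without either S38A library, and its higher count 4 and 5 without S38D asynchronous replicates 1 and 2. Without those replicates 11 and 12 antigen presentation genes were higher. Each gene described here had its S38A libraries on one side of both WT libraries.

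**Figure D3:**
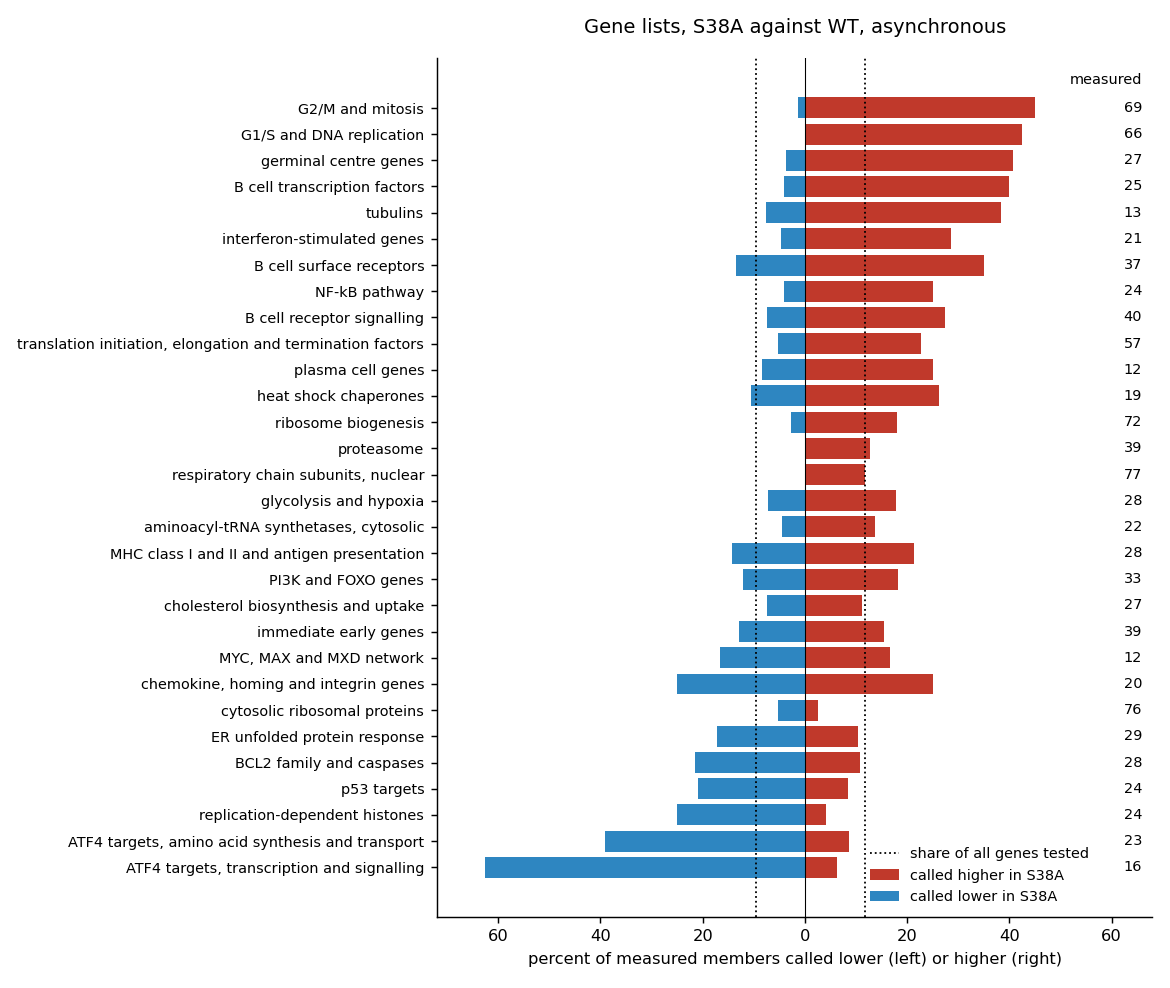
Share of measured members called lower (left, blue) or higher (right, red) in asynchronous S38A against WT cells for the lists with at least 10 measured members, with chromosome 12 members included; dotted lines mark 9.54% and 11.7% of all genes tested, and the number measured stands at the right. The ATF4 lists extend furthest to the left, and the cell cycle lists to the right with 31 of 69 and 28 of 66 members, whose medians turn negative with spike-in scaling.

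Chromosome 12 genes were higher in S38A as a block. Of 383 tested, 144 were higher (37.6%) and 17 lower (4.44%), and their median log2 fold change was 0.46, against medians of -0.18 to 0.07 on the other autosomes and chromosome X. The median was positive in each of 12 bins of 10 Mb along the chromosome, between 0.03 (6 genes) and 0.80 (55 genes). Spike-in scaling gave 44 higher and 33 lower. The higher count was 84 without WT replicate 1, and the lower count 6, 10, 6 and 9 without WT replicates 1 and 2 and S38A replicates 1 and 2. Relative to the other chromosomes, chromosome 12 stood at 0.36 and 0.33 in asynchronous S38A and at -0.16 and -0.18 in asynchronous WT (log2, median deviation of 238 genes from their mean over all libraries, less that of 6819 other genes). Mitotic libraries stood at 0.36 and 0.37 in S38A and -0.21 and -0.22 in WT, and the 4 S38D libraries between -0.23 and -0.11. All 4 S38A libraries lay above the 8 others for 120 of the 383 genes (31.3%), against 2.65% of genes outside the chromosome. The number of copies of the chromosome was not measured.

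The chromosome 12 genes with the largest increases were Crip1 (chr12:113146316-113153879), a LIM domain protein, Adssl1, an adenylosuccinate synthase, Otub2, a deubiquitinase, and the zinc finger gene Zfp839. Crip1 had 121 and 115 CPM in S38A and 28.5 and 31.4 CPM in WT (log2 fold change 1.98, SE 0.155, adjusted p = 4.03e-07). Adssl1 had 44.5 and 40.1 CPM in S38A and 13.1 and 11.3 CPM in WT (log2 fold change 1.78, SE 0.181, adjusted p = 6.08e-06). Otub2 had 246 and 261 CPM in S38A and 83.4 and 83.5 CPM in WT (log2 fold change 1.60, SE 0.154, adjusted p = 3.35e-06). Their fold changes were well above the chromosome's median and the groups did not overlap, and both follow from the rule that chose them. Zfp839 was higher by a log2 fold change of 1.58. Against the trend, Flrt2, an adhesion protein, had 0.944 and 0.861 CPM in S38A and 13.7 and 10.8 CPM in WT (log2 fold change -3.73, SE 0.427, adjusted p = 2.13e-05). Tmem121 (chr12:113185930-113189523), a membrane protein gene, had 3.62 and 3.44 CPM in S38A and 12.5 and 12.2 CPM in WT (log2 fold change -1.80, SE 0.231, adjusted p = 6.04e-05). Fam49a and Hpcal1 were lower by log2 fold changes of -1.67 and -1.24. All of these lower genes had their S38A libraries below both WT libraries, which the rule also required.

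The list counts above include members on chromosome 12, and some of those called there are given here. The higher counts include 2 such translation factors, 2 B cell receptor signalling genes and 1 tRNA synthetase, not all of them named. Rrm2, the ribonucleotide reductase subunit that limits DNA precursor supply, had 248 and 245 CPM in S38A and 128 and 126 CPM in WT (log2 fold change 0.95, adjusted p = 8.82e-05). Akt1, the kinase downstream of PI3K, had 78.2 and 84.9 CPM in S38A and 44.3 and 43.3 CPM in WT (log2 fold change 0.90, adjusted p = 0.000227). Nfkbia, the inhibitor of NF-kB, had 1304 and 1123 CPM in S38A and 782 and 780.1 CPM in WT (log2 fold change 0.64, adjusted p = 0.0011). S38A was above WT in both libraries for all of them. Others called higher included Eif2b2 (0.94), Hsp90aa1 (0.97), Egln3 (1.19), Pdia6 (0.55) and Ighm (0.69), the mu heavy chain, as log2 fold changes. With spike-in scaling Akt1, Nfkbia, Pdia6 and Ighm were not called. The heavy chain gene Ighg3 was called lower, at 8.81 and 9.99 CPM in S38A and 17.0 and 15.0 CPM in WT (log2 fold change -0.77, adjusted p = 0.0303), and without any 1 library of the 4 no heavy or light chain gene of its list was called lower.

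**Figure D4:**
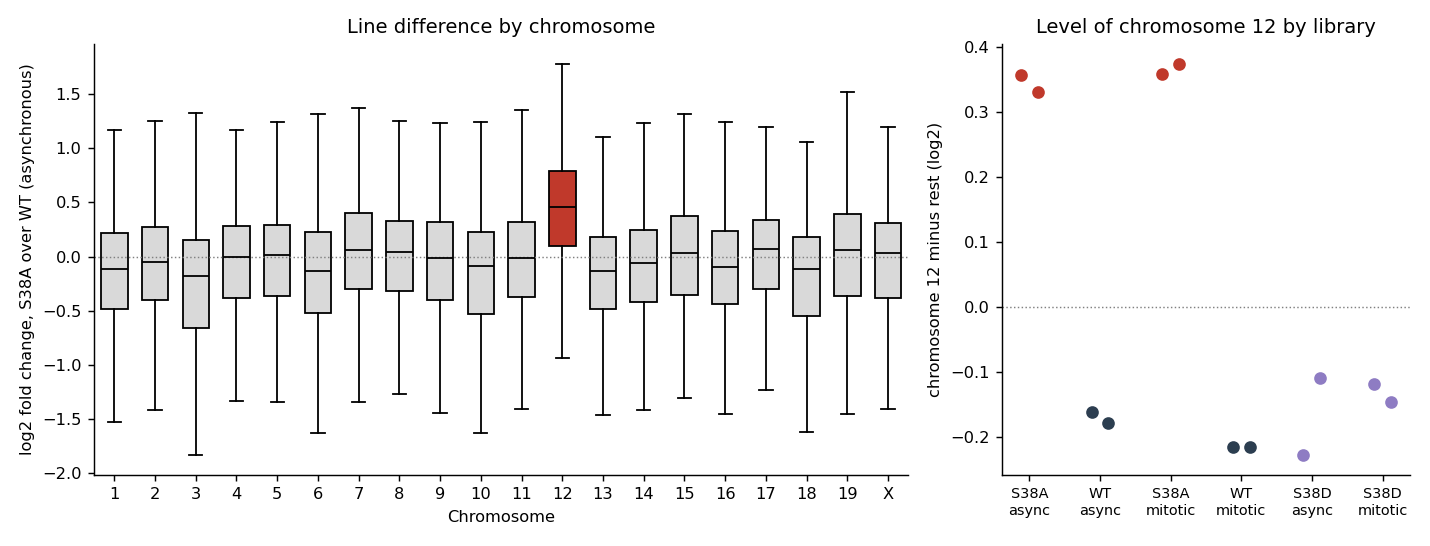
Left, log2 fold change of asynchronous S38A over WT for all genes tested on each chromosome (box, quartiles with the median; whiskers, 1.5 times the box; chromosome 12 in red). Right, level of chromosome 12 relative to the other chromosomes (log2) in each of the 12 libraries, where the 4 S38A libraries lie between 0.33 and 0.37 and the 8 others below 0; scaling does not change this difference within a library.

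Mitotic libraries gave the line difference in samples whose group means the asynchronous comparison did not use. All 12 libraries share the estimate of spread, so the calls of the 2 states are not fully separate. Outside chromosome 12, 719 genes were higher (7.12%) and 907 lower (8.99%) in mitotic S38A than in mitotic WT cells. Of the 1080 genes higher in asynchronous S38A cells 379 (35.1%) were called higher in mitotic cells too, which is 52.7% of the 719, and 6 were called lower. Of the 982 lower genes 383 (39.0%) were called lower again, which is 42.2% of the 907, and 5 were called higher. The sign was kept in 86.5% of the higher and 80.1% of the lower genes, with smaller medians of 0.32 and -0.46. Mitotic counts were 327 and 329 higher and 478 and 372 lower without mitotic S38A replicates 1 and 2, 362 and 432 higher without mitotic WT replicates 1 and 2, 444 lower without mitotic WT replicate 1, and 1135 higher without S38D asynchronous replicate 1. On chromosome 12, 152 were higher (39.7%) and 7 lower (1.83%), with a median of 0.63.

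The difference between states was itself tested, and 99 genes outside chromosome 12 were called (0.981%), 50 with a higher (0.495%) and 49 with a lower (0.485%) S38A effect in mitotic cells. Over all chromosomes there were 104 (0.993%), a number between 6 and 35 when any asynchronous WT or S38A library, any mitotic S38A or S38D library or mitotic WT replicate 1 was left out, and 1214 and 1285 without S38D asynchronous replicates 1 and 2. At an unadjusted p under 0.05 there were 1993. Cholesterol genes differed most often: 13 of the 27 had a called difference between states. In asynchronous S38A cells 3 were higher and 2 lower, and in mitotic S38A cells 19 were lower and 0 higher by edgeR, also at an unadjusted p under 0.05 (medians 0.08 and -0.77). Dhcr7, an enzyme of the last step, had 41.7 and 44.8 CPM in S38A and 30.1 and 32.0 CPM in WT asynchronous cells, and 33.6 and 30.1 CPM in S38A and 63.4 and 68.3 CPM in WT mitotic cells. Its S38A libraries were the higher ones in asynchronous and the lower ones in mitotic cells (difference of log2 fold changes -1.53, SE 0.209, adjusted p = 0.00266). The asynchronous increase of Dhcr7 was not called by DESeq2 (adjusted p = 0.126) or without any 1 of the 4 asynchronous libraries. With spike-in scaling its asynchronous log2 fold change was 0.026 (adjusted p = 0.922). Mvd, another enzyme of the pathway, had 1093 and 1028 CPM in S38A and 641 and 717 CPM in WT asynchronous cells, and 598 and 487 CPM in S38A and 1137 and 932 CPM in WT mitotic cells (difference -1.58, SE 0.285, adjusted p = 0.0368). The asynchronous increase of Mvd was not called without any 1 of the 4 asynchronous libraries. With spike-in scaling its asynchronous log2 fold change was 0.18 (adjusted p = 0.414). Etv4, an ETS factor of ERK signalling, had 10.1 and 11.9 CPM in S38A and 7.61 and 10.5 CPM in WT asynchronous cells, which overlapped, and 5.23 and 8.32 CPM in S38A and 23.2 and 20.1 CPM in WT mitotic cells (difference -1.97, SE 0.395, adjusted p = 0.0289). Within mitotic cells both WT libraries were above both S38A libraries for Dhcr7, Mvd and Etv4. Birc2, an inhibitor of apoptosis, had 7.08 and 6.89 CPM in S38A and 23.8 and 20.9 CPM in WT asynchronous cells, and 11 and 10.8 CPM in S38A and 6.04 and 7.01 CPM in WT mitotic cells (difference 2.42, SE 0.395, adjusted p = 0.0143). Gramd4 had 3.93 and 4.30 CPM in S38A and 19.9 and 13.9 CPM in WT asynchronous cells, and 5.78 and 6.73 CPM in S38A and 3.77 and 4.38 CPM in WT mitotic cells (difference 2.67, SE 0.542, adjusted p = 0.0296).

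**Figure D5:**
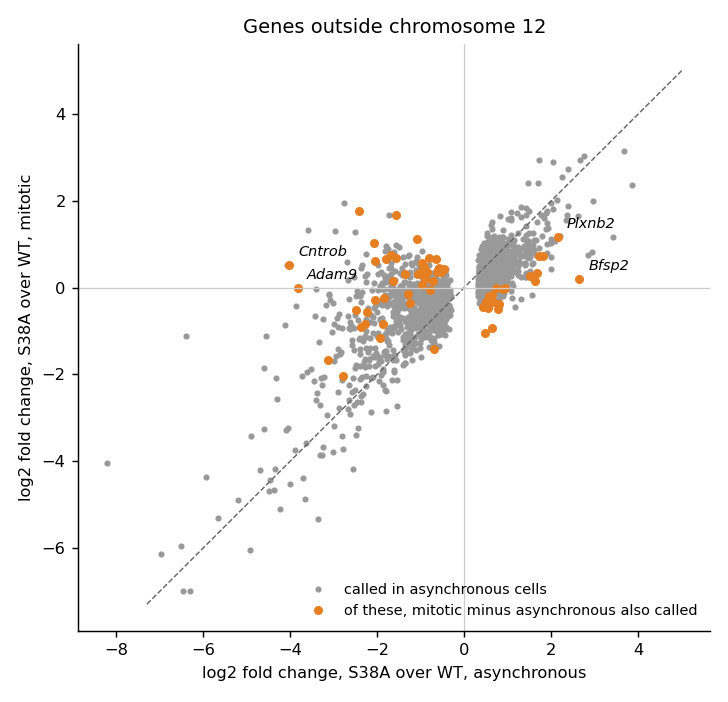
Log2 fold change of S38A over WT in mitotic (vertical) against asynchronous cells (horizontal) for the 2062 genes outside chromosome 12 (20.4%) called in asynchronous cells; the dashed line marks equal change, and orange points are genes whose difference between states was called. Genes such as Cntrob and Adam9 lie near 0 on the vertical axis and far left of 0 on the horizontal one.

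S38D shares its WT libraries with S38A in the comparison with WT, so their values are only set side by side, and the difference of the mutants was tested directly. Outside chromosome 12, 341 genes were higher (3.38%) and 300 lower (2.97%) in S38D than in S38A, and on chromosome 12, 7 were higher (1.83%) and 108 lower (28.2%). These 756 calls (7.22% of all genes tested) became 217 and 244 without asynchronous S38A replicates 1 and 2, and 1351 and 1382 without asynchronous S38D replicates 1 and 2. Wnt10a had 38.6 and 34.1 CPM in S38D and 0.786 and 0.516 CPM in S38A (log2 fold change 5.74, SE 0.269, adjusted p = 1.26e-09), with 23.2 and 26.9 CPM in WT. Kcnab2 had 90.1 and 68.3 CPM in S38D and 3.15 and 3.96 CPM in S38A (log2 fold change 4.47, SE 0.230, adjusted p = 4.04e-09), with 54.3 and 61.1 CPM in WT. Car2 had 15.9 and 38.3 CPM in S38D and 1.89 and 0.861 CPM in S38A (log2 fold change 4.25, SE 0.516, adjusted p = 0.00171), with 25.8 and 28.0 CPM in WT. Both S38D libraries were far above both S38A libraries for these 3 genes. On the other side, H1fx had 3.18 and 2.47 CPM in S38D and 17.5 and 12.2 CPM in S38A (log2 fold change -2.38, SE 0.345, adjusted p = 0.000469), with 3.51 and 1.98 CPM in WT. Elovl7, an elongase of fatty acids, had 2.86 and 3.88 CPM in S38D and 17.1 and 18.4 CPM in S38A (log2 fold change -2.40, SE 0.299, adjusted p = 0.000115), with 12.5 and 14.4 CPM in WT. Both S38D libraries were far below both S38A libraries for these genes. Ptprcap had 0.318 and 1.24 CPM in S38D against 36.5 and 30.8 CPM in WT, and Trib3 had 92.5 and 77.7 CPM in S38D against 292 and 350.3 CPM in WT. For these 2 genes S38D was as low as or near S38A, and the difference between the mutants was not called (log2 fold change 1.53, SE 0.814, adjusted p = 0.3 for Ptprcap, and -0.33, SE 0.128, adjusted p = 0.138 for Trib3). Of the ATF4 regulators 13 of 16 were lower in S38D than in WT (4.12% of all genes), with a median of -1.05, beside the 10 of 16 and -1.06 of S38A.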

How the data were processed

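The deposited tables hold raw read counts per gene, with ERCC spike-ins as extra rows. Per the submitters' processing notes, bcl2fastq 2.16.0.10, cutadapt 1.12, STAR 2.5.3a and mm10 were used, and neither the notes nor the labels name the counting tool, its strand setting or its annotation. Gene symbols came from the reference annotation of GRCm38 for 51633 of 51826 gene IDs (99.63%). Genes were kept by edgeR's filterByExpr (minimum count 10), which left 10477. All 12 libraries were fitted by group mean with TMM scaling and edgeR 4.0.16's quasi-likelihood test in R 4.3.3, two-sided, with Benjamini-Hochberg adjustment over all genes and a threshold of 0.05; each SE is the log2 fold change over the root of its F value. DESeq2 1.42.0, limma 3.58.1 and other settings were alternatives. On simulated counts for 10333 genes, the fit of asynchronous S38A against WT recovered 49 of 98 genes changed 2-fold and 82 of 98 changed 4-fold, with 5 false calls. Depth was 3432875 to 6587997 gene reads per library, and intervals cover counting error only. Genes named were the 14 with the largest called change in each direction outside chromosome 12 and 4 on it (at least 10 CPM in the higher group, groups not overlapping), the 3 largest in each direction of the other contrasts, and up to 4 members per list with the smallest adjusted p. Any further gene was picked with its values in view. The members, lists and named comparisons were chosen with earlier results of these data known. Some genes that meet these rules are not reported here.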

Additional observations from a re-analysis of the deposited data

Results flagged for a closer look

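For 14 of the named genes the S38A difference from WT changed between states by edgeR's test of that change (mitotic minus asynchronous log2 fold change). Several genes that were lower in asynchronous S38A cells had positive changes, which were 4.55 for Cntrob (adjusted p = 0.0235), 3.81 for Adam9 (adjusted p = 0.017), 2.67 for Gramd4 (adjusted p = 0.0296), 2.42 for Birc2 (adjusted p = 0.0143), 1.42 for Cebpb (adjusted p = 0.017), 1.16 for Hist1h1c (adjusted p = 0.00207) and 1.08 for Paip2 (adjusted p = 0.0183). Cholesterol enzymes had negative changes, with -1.58 for Mvd (adjusted p = 0.0368), -1.53 for Dhcr7 (adjusted p = 0.00266) and -0.87 for Hmgcs1 (adjusted p = 0.0143). The other changes were -2.44 for Bfsp2 (adjusted p = 0.0353), -1.97 for Etv4 (adjusted p = 0.0289), -0.97 for Plxnb2 (adjusted p = 0.0497) and -0.80 for the chaperone Dnajb1 (adjusted p = 0.0354). Leaving out 1 asynchronous library left 2 (WT replicate 1), 5 (WT replicate 2), 1 (S38A replicate 1) and 2 (S38A replicate 2) of the 14 called, and leaving out mitotic libraries left 3 (WT replicate 1), 12 (WT replicate 2), 5 (S38A replicate 1) and 2 (S38A replicate 2); limma-voom called 6 and DESeq2 12 of them. Of the 14, Cebpb and Plxnb2 were called in the same direction in both states.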

How the results depend on the processing

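Counts of calls and the direction of most lists depended on scaling, and counts on single libraries; causes were not tested. Of 21 pathway lists with a positive median, 20 had a negative one with spike-in scaling, all but the germinal centre list. DESeq2 called 579 lower genes outside chromosome 12, 9 lower on it, 401 higher and 536 lower in mitotic cells, and 444 between S38D and S38A. With spike-in scaling there were 158 higher and 3082 lower, on chromosome 12 44 and 33, in mitotic cells 414 and 602, 491 for the change between states and 402 between S38D and S38A. Signs turned there for Rpl12 (-0.33), Rplp0 (-0.41), Rplp2 (-0.35), Etv4 (-0.16), Elovl7 (-0.045), Rps9 (-0.033) and Hmgcs1 (-0.032), and 28 of the 128 called genes checked lost their call. Signs also turned for Rplp1 without WT replicate 1 (0.005) and S38A replicate 1 (0.02, range -0.137 to 0.02 with 1 library left out). Changes between states numbered 25 by limma-voom, 26 without robust fitting and 616 with no count filter, and 9 chromosome 12 genes were lower at a minimum of 10 CPM. Fitting only the groups compared gave 1754 higher and 1927 lower, 27 lower on chromosome 12, 962 changes between states and 105 calls between S38D and S38A. The next 3 settings were chosen after seeing the data. GC offsets gave 1125 higher and 952 lower, and 72 changes between states. Without S38D libraries there were 1661 higher and 962 changes between states. Without asynchronous S38D replicate 1 and mitotic WT replicate 1 there were 1946 higher, 1752 lower, 175 higher and 26 lower on chromosome 12, 795 changes between states and 1919 calls between S38D and S38A. With 1 library left out, higher genes numbered 379 to 1799, lower genes 404 to 1387, on chromosome 12 84 to 171 and 6 to 24, in mitotic cells 327 to 1135 and 372 to 1333, changes between states 6 to 1285 and S38D against S38A 217 to 1382. With replicate number as a block there were 1133 higher and 1070 lower. Replicate 1 minus replicate 2 differences were correlated between groups, at -0.40 to 0.79. The highest value was that of asynchronous S38D with mitotic WT. For asynchronous WT with S38A it was -0.03, so the numbers showed no pairing of these groups. Depth and 2 libraries a group limit the test.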
